A study of Mus musculus with 15 samples.

Results

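The airway mucin genes Muc5ac, Muc5b, Muc1, Muc4, Muc16 and Muc20 were followed in mouse lungs that had received stiff, fibre-like carbon nanotubes (rod-like, rCNT). They were represented by the array probes whose RefSeq accession belongs to 1 of these 6 genes. Probes were matched for 5 of the 6 genes, 7 probes in all, among 25251 genes tested, and Muc16 is not analysed here. Every one of the 7 probes was well above background in all 15 samples, so none depended on a filter for dim probes.

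The 15 samples were lungs of female C57BL/6 mice, 7 to 8 weeks old, taken 24 h after the last exposure and measured on 2-colour Agilent arrays. In 4 samples rCNT had been given by oropharyngeal aspiration, in which a drop of liquid placed in the throat is drawn into the lung. Each dose was 10 µg, suspended in 50 µl phosphate-buffered saline (PBS), once a day over 4 days. The 4 controls of this route had aspirated PBS alone. In 3 samples rCNT had been inhaled as an aerosol of 6.2 to 8.2 mg per cubic metre for 4 h per day over 4 days, and the 4 controls of this route were untreated mice. For untreated replicate 1 the title speaks of aspirated PBS, against its remaining labels, and the sample was kept as untreated. The titles and descriptions do not tell single mice from pooled ones, but the scans of the inhalation route, and not those of the aspiration route, carry the word pool in their names. What a sample stands for may therefore differ between the routes, and the SEs, p-values and n reflect only how far these samples vary, in part perhaps for technical reasons. The 8 samples of the aspiration route shared 1 slide, those of the inhalation route were spread over 2 more, and inhaled rCNT replicate 2 shared an array with untreated replicate 4. Per sample, 54.6% to 64.7% of spots exceeded background clearly, and the median brightness was 56.5 to 149.5 units. All 8 markers of alveolar type 2 cells were well above background in every sample. PBS and untreated lungs, the controls of the routes, were not alike: 59.4% of all genes differed between PBS and untreated lungs at an adjusted p below 0.05.

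Mucins are large proteins that carry dense O-linked sugar chains. Muc5ac and Muc5b are secreted and swell into the mucus gel that traps inhaled matter. In mice, Muc5b is the mucin of the healthy airway and mucociliary clearance depends on it, whereas Muc5ac is low at rest and is made in quantity by goblet cells in allergic inflammation. Muc1, Muc4, Muc16 and Muc20 are anchored in the cell membrane, where they shield the surface and take part in signalling.

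The first comparison addressed what aspirated rCNT did to the mucin genes relative to aspirated PBS. All 5 measured genes rose, against 20.6% of all genes that rose, 26.5% that fell and 47.2% that changed in either direction (limma, adjusted p below 0.05). The median of the 5 log2 differences was 1.59, while that of all genes was -0.04. The second comparison set inhaled rCNT against untreated lungs. Here 4 of the 5 rose and Muc1 did not pass, against 28.4% of all genes that rose, 32.5% that fell and 60.8% that changed in either direction. The median of the 5 was 1.96 and that of all genes -0.02. The number of arrays limits the precision of all these values. In whole lung RNA, more cells of a type and more RNA per cell cannot be told apart.

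**Figure D1:**
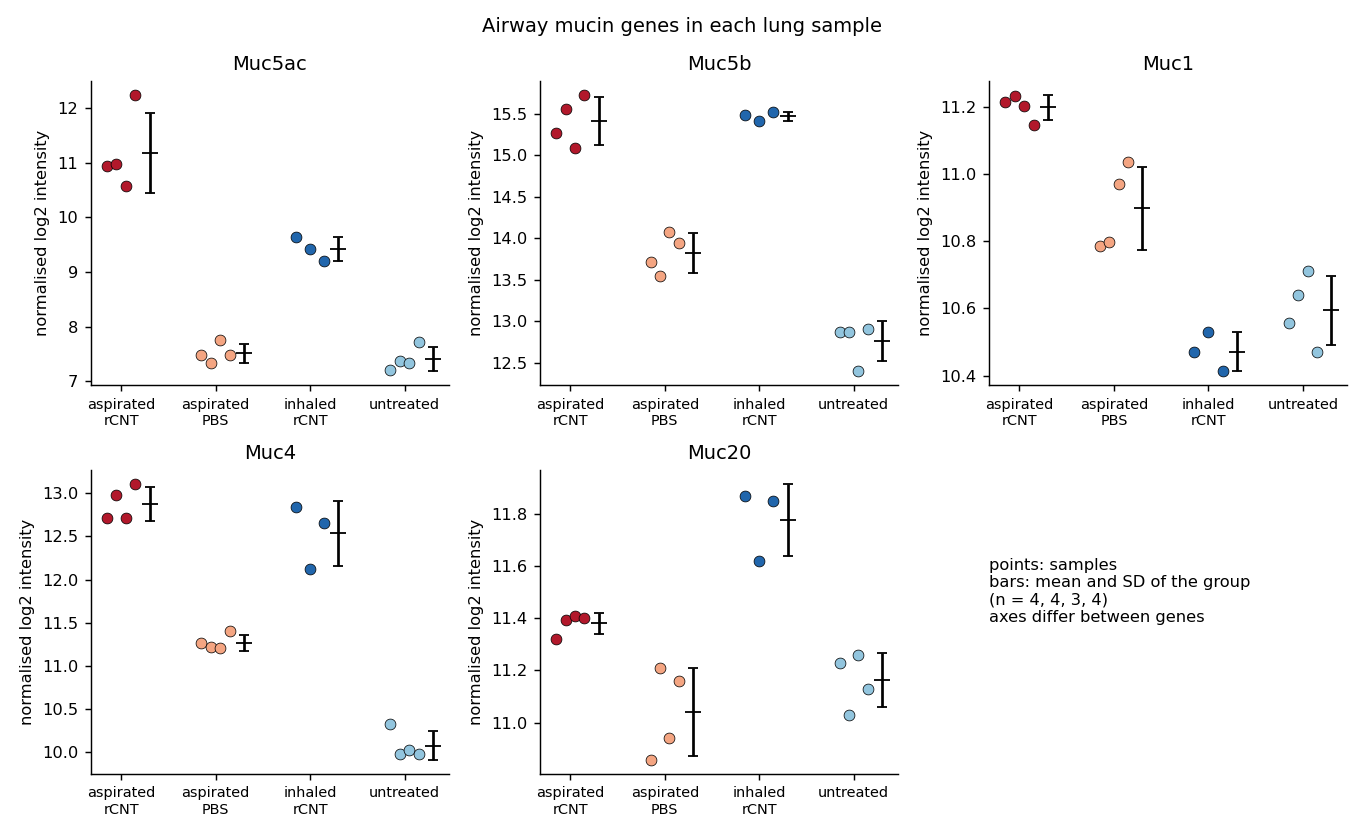
Normalised log2 intensity (vertical axis) of the probe standing for each mucin gene in every sample of the 4 groups, with the group mean and SD as bars (n = 4 aspirated rCNT, 4 aspirated PBS, 3 inhaled rCNT, 4 untreated). Axes differ between genes. Muc5ac samples with rCNT lie above all controls by either route, and PBS and untreated samples overlap, whereas Muc5b and Muc4 lie higher in PBS than in untreated lungs.

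Muc5ac showed the largest difference of the 5 after aspiration. Its normalised log2 intensity was 10.94, 10.97, 10.58 and 12.25 in the 4 aspirated rCNT lungs, against 7.47, 7.34, 7.76 and 7.47 in the 4 PBS lungs. In inhalation it was 9.64, 9.41 and 9.21 in rCNT lungs, against 7.20, 7.36, 7.33 and 7.71 in untreated lungs. No exposed sample overlapped its controls by either route, and aspirated rCNT replicate 4 was the highest of all. The log2 difference was 3.67 ± 0.23 after aspiration (SE, n = 4 each, limma adjusted p = 3.101e-09), a 12.7-fold rise that ranked 23 by size among the 5212 genes that rose. After inhalation it was 1.96 ± 0.25 (n = 3 and 4, limma adjusted p = 5.229e-06), or 3.90-fold. Without aspirated rCNT replicate 4 the aspiration difference was 3.34. The software's processed signal, which handles the background otherwise, gave 4.34 after aspiration and 2.58 after inhalation.

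The controls did not differ detectably in Muc5ac, at 0.11 ± 0.23 for PBS minus untreated (95% interval -0.37 to 0.59, limma adjusted p = 0.6985). Aspirated rCNT lungs were higher than inhaled rCNT lungs by 1.82 (adjusted p = 1.171e-05), and inhaled rCNT lungs were higher than PBS lungs by 1.85 (adjusted p = 1.537e-05). The order of the Muc5ac levels was therefore aspirated rCNT, inhaled rCNT, and then PBS and untreated lungs, whose ranges overlapped. Between routes, route, dose and slide cannot be told apart.

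Muc5b differed more after inhalation than after aspiration. Its log2 intensity was 15.27, 15.56, 15.08 and 15.73 in aspirated rCNT lungs, against 13.71, 13.54, 14.08 and 13.94 in PBS lungs. It was 15.48, 15.41 and 15.51 in inhaled rCNT lungs, against 12.87, 12.87, 12.40 and 12.90 in untreated lungs. Samples with rCNT overlapped between routes, while all PBS samples lay above all untreated samples. The log2 difference was 1.59 ± 0.12 after aspiration (limma adjusted p = 2.329e-08, 3.01-fold) and 2.66 ± 0.13 after inhalation (limma adjusted p = 2.054e-10, 6.34-fold). PBS lungs were higher than untreated lungs by 1.06 ± 0.12 (limma adjusted p = 1.578e-06) with no overlap. Aspirated minus inhaled rCNT lungs gave -0.02 (95% interval -0.29 to 0.26, adjusted p = 0.9262), so these groups were not distinguished. The order of the Muc5b levels was inhaled and aspirated rCNT together, then PBS, then untreated lungs.

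Untreated replicate 3, at 12.40, lay apart from the other 3 untreated samples. Without it the Muc5b difference after inhalation was 2.59, the lowest of 2.59 to 2.74 over all left-out samples. Within slide 2 the difference was 2.59 and within slide 3 it was 2.69. For Muc5ac the values within these slides were 2.16 and 1.73. Slide 2 held inhaled rCNT replicate 1 and untreated replicates 1, 2 and 3. Slide 3 held inhaled rCNT replicates 2 and 3 and untreated replicate 4. Each value within a slide therefore rests on 1 sample of 1 of the groups.

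The membrane-bound mucins followed separate courses. The promoters of Muc1, Muc4 and Muc20 are shown, and none was available for Muc5ac or Muc5b, the secreted mucins. Muc4 and Muc20 are neighbours on chromosome 16, and their annotated spans overlap on opposite strands. Each line holds the 250 bases before the annotated start, 5′ to 3′ on the gene's own strand, from RefSeq on GRCm38.p6. Capitals mark a TATA box (TATAAA) or a GC box (GGGCGG) found by a search of both strands. The windows are chr3:89228806-89229055 on the plus strand for Muc1, chr16:32735636-32735885 on the plus strand for Muc4 and chr16:32797436-32797685 on the minus strand for Muc20.
Muc1: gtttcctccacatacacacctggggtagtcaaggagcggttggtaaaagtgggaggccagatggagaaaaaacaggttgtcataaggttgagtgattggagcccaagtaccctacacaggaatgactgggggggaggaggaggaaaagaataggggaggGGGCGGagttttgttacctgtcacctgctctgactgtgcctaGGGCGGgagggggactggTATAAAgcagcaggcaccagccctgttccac
Muc4: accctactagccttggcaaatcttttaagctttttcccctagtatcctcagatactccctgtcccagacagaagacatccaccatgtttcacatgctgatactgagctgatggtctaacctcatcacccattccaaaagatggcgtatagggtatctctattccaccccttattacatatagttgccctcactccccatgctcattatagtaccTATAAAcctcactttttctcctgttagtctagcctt
Muc20: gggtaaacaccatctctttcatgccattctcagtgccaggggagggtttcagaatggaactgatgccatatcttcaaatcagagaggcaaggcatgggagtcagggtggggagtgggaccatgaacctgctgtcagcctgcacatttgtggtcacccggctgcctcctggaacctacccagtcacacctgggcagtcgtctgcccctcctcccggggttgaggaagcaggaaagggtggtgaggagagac
The Muc1 promoter holds TATAAA at 31 to 26 bases before the start and GGGCGG at 91 to 86 and at 49 to 44 bases before it. The Muc4 promoter holds TATAAA at 36 to 31 bases before the start and no GGGCGG. In the Muc20 window neither motif was found. Of 32851 promoters of this length, 12.4% held TATAAA and 32.7% held GGGCGG. The STAT6 type motif (TTC and GAA with 4 bases between), the STAT type motif TTCNNNGAA, the AP-1 motif TGANTCA and the E-box CACGTG occur in none of the 3 windows and in 5.85%, 7.02%, 6.75% and 6.02% of all promoters. G and C made up 54.8% of the Muc1 window, 43.6% of that of Muc4 and 57.2% of that of Muc20, with a median of 52.4% over all promoters. These matches describe the letters only.

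Muc4, whose product binds the receptor ErbB2 and lines the airway surface, rose about as much as Muc5b. The log2 intensity of its brighter probe was 12.72, 12.98, 12.71 and 13.11 in aspirated rCNT lungs, against 11.26, 11.21, 11.20 and 11.40 in PBS lungs. It was 12.84, 12.12 and 12.65 in inhaled rCNT lungs, against 10.32, 9.98, 10.03 and 9.97 in untreated lungs. The groups of each comparison were far apart relative to their spread. The log2 difference was 1.61 ± 0.11 after aspiration (limma adjusted p = 1.197e-08, 3.05-fold) and 2.43 ± 0.12 after inhalation (limma adjusted p = 3.067e-10, 5.37-fold). PBS lungs exceeded untreated lungs by 1.19 ± 0.11 (limma adjusted p = 2.968e-07).

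Among the Muc4 levels, aspirated rCNT lungs were highest, followed by inhaled rCNT, PBS and untreated lungs. The step between the first of these, 0.38 ± 0.12 for aspirated minus inhaled rCNT (limma adjusted p = 0.01366), had overlapping samples. It was lost without inhaled rCNT replicate 2, at 0.20 (adjusted p = 0.1737), and without the dye term, at 0.34 (adjusted p = 0.05039).

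Muc1, whose cytoplasmic tail carries signals into epithelial cells, changed little. Its log2 intensity was 11.21, 11.23, 11.20 and 11.15 in aspirated rCNT lungs, against 10.79, 10.80, 10.97 and 11.03 in PBS lungs. It was 10.47, 10.53 and 10.41 in inhaled rCNT lungs, against 10.56, 10.64, 10.71 and 10.47 in untreated lungs. The aspiration groups did not overlap and the inhalation groups did. After aspiration Muc1 rose by 0.30 ± 0.07 (limma adjusted p = 0.001328), a 1.23-fold difference. After inhalation the difference was -0.11 ± 0.07 (95% interval -0.26 to 0.04, limma adjusted p = 0.1893), which excludes a rise of the size seen after aspiration. With 75th percentile centring in place of quantile normalisation the inhalation value was -0.22 (adjusted p = 0.02344), lower in inhaled rCNT lungs.

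PBS lungs had 0.30 ± 0.07 more Muc1 than untreated lungs (limma adjusted p = 0.000931). Inhaled rCNT lungs lay below PBS lungs, at -0.41 (adjusted p = 0.0001639). The order of the Muc1 levels was aspirated rCNT, PBS, and then untreated and inhaled rCNT lungs, which overlapped.

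Muc20, a membrane mucin known in human cells to bind the receptor Met, rose modestly by its brighter probe. This probe's log2 intensity was 11.32, 11.39, 11.41 and 11.40 in aspirated rCNT lungs, against 10.86, 11.21, 10.94 and 11.16 in PBS lungs. It was 11.87, 11.62 and 11.85 in inhaled rCNT lungs, against 11.23, 11.03, 11.26 and 11.13 in untreated lungs. Exposed and control samples did not overlap by either route, though the aspiration groups lay close together. The log2 difference was 0.34 ± 0.09 after aspiration (limma adjusted p = 0.003798) and 0.62 ± 0.09 after inhalation (limma adjusted p = 2.951e-05). PBS minus untreated gave -0.12 ± 0.09 (95% interval -0.30 to 0.06, limma adjusted p = 0.2336). Of the Muc20 levels, inhaled rCNT lungs were highest, aspirated rCNT lungs came next, and untreated and PBS lungs overlapped below them.

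The dimmer probe of Muc20, which carries another RefSeq transcript accession, went the other way after aspiration. Its log2 intensity was 6.89, 7.07, 6.95 and 6.96 in aspirated rCNT lungs, against 7.42, 7.51, 7.51 and 7.39 in PBS lungs. It was 7.01, 7.04 and 7.11 in inhaled rCNT lungs, against 6.96, 6.91, 6.76 and 6.89 in untreated lungs. By this probe the PBS lungs stood above all other samples. The aspiration difference was -0.49 ± 0.06 (limma adjusted p = 5.175e-06 over 34271 probes), and the PBS minus untreated difference was 0.58 ± 0.06 (limma adjusted p = 7.487e-07). The inhalation difference was 0.16 ± 0.07 (limma adjusted p = 0.0432), and it missed the threshold under 15 of 28 alternatives. The mean of both Muc20 probes differed by -0.077 after aspiration (adjusted p = 0.3048), so the rise of Muc20 after aspiration rests on the brighter probe. Whether either probe also reads RNA of the overlapping Muc4 gene was not tested.

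Both probes of Muc4 rose by either route. The dimmer one had a log2 intensity of 8.32, 8.31, 8.41 and 8.42 in aspirated rCNT lungs, against 7.21, 7.42, 7.36 and 7.65 in PBS lungs. It had 7.98, 7.80 and 7.88 in inhaled rCNT lungs, against 7.01, 6.68, 6.82 and 6.76 in untreated lungs. Its log2 differences, 0.96 ± 0.09 after aspiration and 1.07 ± 0.10 after inhalation (limma adjusted p = 3.043e-07 and 1.448e-07), were smaller than those of the brighter probe. With the processed signal they were 1.42 and 1.86.

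**Figure D2:**
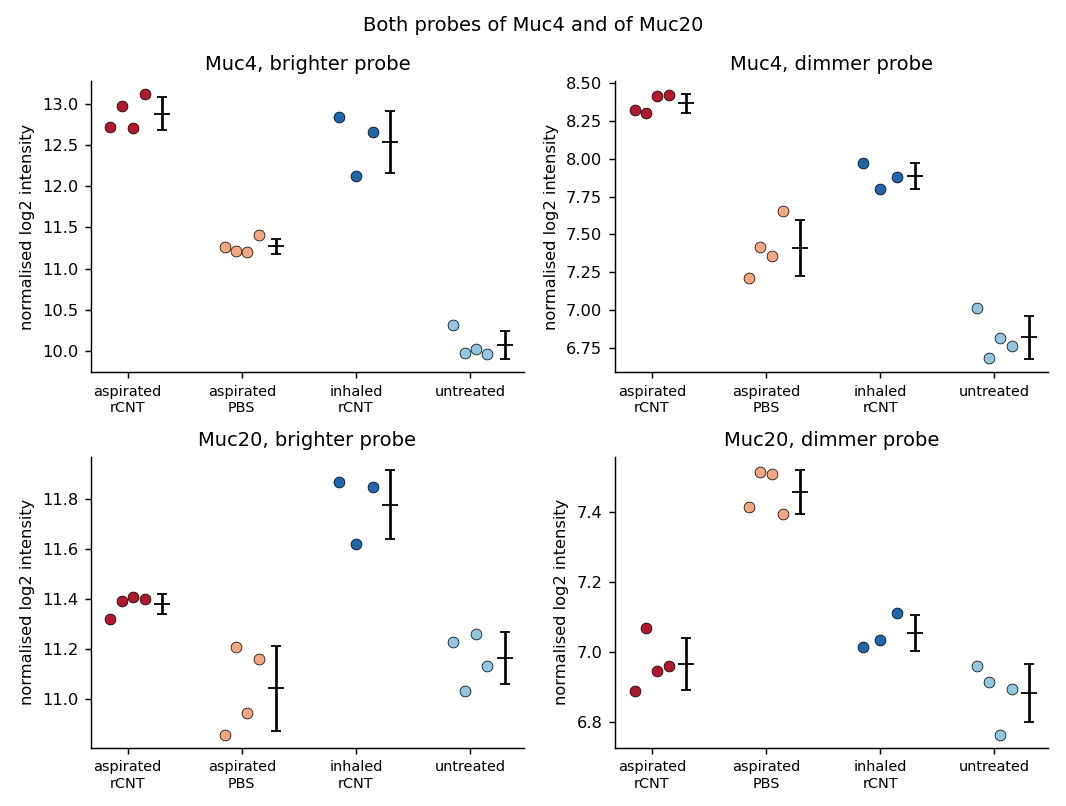
Normalised log2 intensity (vertical axis) of both probes of Muc4 and of Muc20 in every sample, with group means and SD as bars (n = 4, 4, 3 and 4). Both Muc4 probes are higher with rCNT by either route, whereas the dimmer Muc20 probe is lower in aspirated rCNT than in PBS lungs, at -0.49 on the log2 scale.

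The third comparison tested whether the mucin genes responded differently to the exposures, as the aspiration difference minus the inhalation difference. The lung dose of inhaled rCNT is not known here, so the exposures are not compared at a known equal dose. Of the 5 genes 4 passed, 2 in each direction, against 57% of all genes, 28.4% higher and 28.5% lower. The value was 1.71 ± 0.34 for Muc5ac (limma adjusted p = 0.0004383) and 0.41 ± 0.10 for Muc1 (limma adjusted p = 0.001821), larger after aspiration. It was -1.08 ± 0.17 for Muc5b (limma adjusted p = 7.205e-05) and -0.82 ± 0.17 for Muc4 (limma adjusted p = 0.0005692), larger after inhalation. The secreted mucins thus differed in opposite directions. For Muc20 the value was -0.28 ± 0.13 (limma adjusted p = 0.0691), and it passed without PBS replicate 1 at -0.34 (adjusted p = 0.02774) and without inhaled rCNT replicate 2 at -0.39 (adjusted p = 0.01418). By the dimmer probe of Muc4 it was -0.11 ± 0.13 (limma adjusted p = 0.5002), so the Muc4 result rests on the brighter probe. By the dimmer probe of Muc20 it was -0.66 ± 0.09 (limma adjusted p = 1.208e-05). This test also holds the difference between PBS and untreated lungs. For Muc5b that difference, 1.06, was nearly as large as the test's value, and for Muc4, at 1.19, it was larger. The Muc4 levels with rCNT ran the other way from the test, 0.38 higher in aspirated than in inhaled rCNT lungs.

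**Figure D3:**
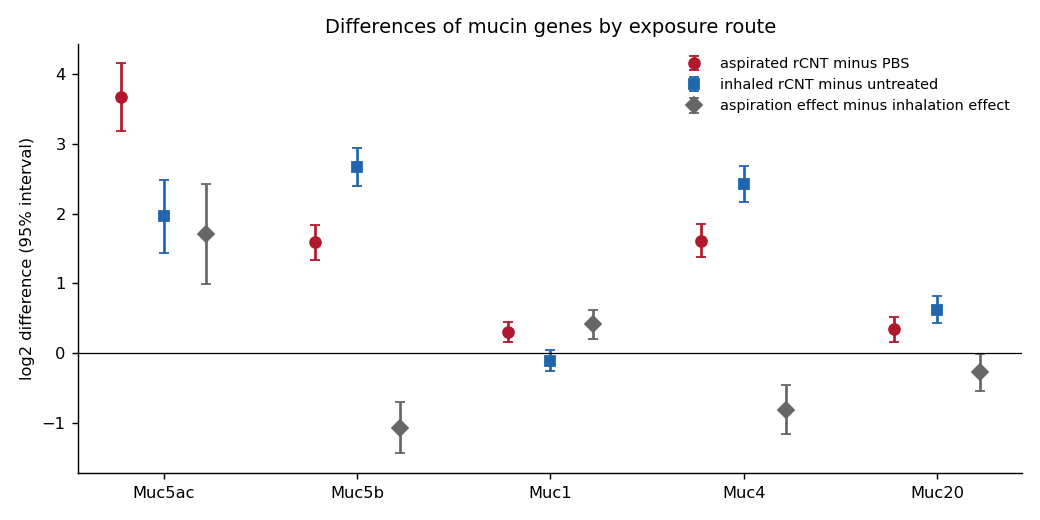
Log2 differences (vertical axis) of the 5 mucin genes with 95% intervals from limma, for aspirated rCNT minus PBS (circles), inhaled rCNT minus untreated (squares) and the aspiration effect minus the inhalation effect (diamonds). Against the control of its own route, Muc5ac rose more by aspiration, and Muc5b and Muc4 more by inhalation. These controls differed, with PBS above untreated lungs by 1.06 for Muc5b and 1.19 for Muc4. The interval of Muc1 after inhalation includes 0.

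The controls were compared directly because the exposures do not share one. Of the 5 mucin genes 3 were higher in PBS than in untreated lungs, namely Muc5b, Muc4 and Muc1, against 26.3% of all genes that were higher and 33.1% that were lower. Muc5ac and Muc20 did not pass. This comparison depends on scaling: 44.3% of all called genes were higher in PBS lungs, but 26.9% with 75th percentile centring and 35.7% with the processed signal, and the median of all genes moved to -0.20 and -0.14. The 3 mucin genes passed as higher under every alternative run. Inhaled rCNT lungs set against PBS lungs gave 4 higher and 1 lower, against 27.5% and 27.7% of all genes (55.2% in either direction), with Muc1 the lower one. Aspirated minus inhaled rCNT lungs gave 3 higher and 1 lower, against 27.9% and 33.4% of all genes (61.4% in either direction), with Muc20 the lower one at -0.40. These comparisons depend on scaling too. Of all called genes, 49.9% were higher in inhaled rCNT than in PBS lungs, but 67.2% with 75th percentile centring and 60.3% with the processed signal. For aspirated minus inhaled rCNT the share was 45.5%, but 32% and 38.3% under these settings, with medians of all genes of -0.22 and -0.13. The number of mucin genes that passed, 5 and 4, was the same under both. In these comparisons slide, route and kind of control cannot be told apart, nor can the dose where rCNT lungs are compared.

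Other mucin and mucin-like genes were mixed. Of 18 listed genes 8 were tested: 3 rose and 4 fell after aspiration, and 4 rose and 4 fell after inhalation. The counts of this and every later list stand against the shares of all genes. These were 20.6% higher and 26.5% lower after aspiration, and 28.4% higher and 32.5% lower after inhalation. Muc13, a membrane mucin of gut and airway, rose by 0.27 ± 0.07 after aspiration and by 0.23 ± 0.07 after inhalation. Prg4, a lubricating proteoglycan of joints, rose by 0.57 after aspiration. The sialomucins Emcn and Podxl, which mark endothelium, fell by 1.39 and 1.33 after inhalation. All 6 endothelial markers fell after either exposure: their mean log2 intensity was 12.02 to 12.29 in aspirated rCNT lungs against 12.79 to 13.12 in PBS lungs, and 12.21 to 12.56 in inhaled rCNT lungs against 13.19 to 13.29 in untreated lungs. The part of these markers in the falls of Emcn and Podxl was not tested.

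Genes that fold, pack, release or accompany secreted mucins included several large rises. Of 20 tested, 11 rose and 4 fell after aspiration, and 11 rose and 6 fell after inhalation, with medians of 0.34 and 0.36. Agr2, a protein disulfide isomerase that mucin folding needs, rose by 4.05 ± 0.12 after aspiration and by 3.87 ± 0.13 after inhalation (limma adjusted p = 1.49e-12 and 8.028e-12). Clca1, a protease secreted with mucus, rose by 5.43 ± 0.42 and by 6.18 ± 0.45. Tff1, a trefoil peptide that accompanies mucins, was not well above background in any PBS or untreated sample. It was at least 8.80-fold higher in aspirated rCNT than in PBS lungs, and at least 1.36-fold higher in inhaled rCNT than in untreated lungs. Such a bound sets each dim sample at the lowest signal well above background. The related peptide Tff2 rose by 1.48 after aspiration and by 1.91 after inhalation. Vamp8, which takes part in the release of mucin granules, fell by 0.54 after aspiration and by 0.43 after inhalation.

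Enzymes of O-glycosylation moved both ways. Of 26 tested, 9 rose and 4 fell after aspiration, and 8 rose and 11 fell after inhalation, with medians of 0.00 in both. Among all genes 20.6% rose and 26.5% fell after aspiration, and 28.4% rose and 32.5% fell after inhalation. The inhalation counts alone therefore do not set this list apart. Galnt6, which starts O-linked chains, rose by 1.15 ± 0.07 after aspiration and by 0.23 ± 0.08 after inhalation. Gcnt1, which branches them, rose by 0.92 ± 0.07 after aspiration, and fell by 0.58 ± 0.08 after inhalation. St6galnac1, a sialyltransferase that caps short chains, rose by 2.27 ± 0.25 after inhalation, while its aspiration difference was -0.21 ± 0.23 (limma adjusted p = 0.4882). The sulfotransferase gene Chst5 fell by 1.095 after inhalation.

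Of 23 regulators of mucin genes tested, 13 rose and 6 fell after aspiration, and 7 rose and 4 fell after inhalation, with medians of 0.19 and -0.06. Among all genes 20.6% rose and 26.5% fell after aspiration, and 28.4% rose and 32.5% fell after inhalation. The number that rose after inhalation therefore does not set the regulators apart. Spdef, the transcription factor of goblet cells, rose by 1.46 ± 0.12 after aspiration and by 1.09 ± 0.13 after inhalation. Il13, the cytokine best known to drive Muc5ac, was not well above background in any PBS sample and was at least 4.86-fold higher in aspirated rCNT lungs. In inhaled rCNT lungs Il13 was well above background in 1 of 3 samples and in untreated lungs in none. Il4 rose by 2.24 ± 0.12 after aspiration, and it was well above background in no inhaled rCNT sample. The difference of effects was 2.14 for Il13 and 2.40 for Il4 (limma adjusted p = 5.904e-06 and 2.535e-08), fitted on levels of which many were not well above background. Areg, a ligand of the epidermal growth factor receptor, rose by 1.12 ± 0.17 after aspiration and by 1.70 ± 0.19 after inhalation. Stat3, a transcription factor downstream of many cytokines, rose by 0.19 and by 0.75.

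Partners of the membrane mucins were mixed, with 4 higher and 1 lower of 12 tested after aspiration, and 3 higher and 3 lower after inhalation. Lgals3, a lectin that binds mucin sugars and is abundant in macrophages, rose by 1.72 ± 0.10 after aspiration, with a value of 0.02 ± 0.11 after inhalation. The leukocyte markers, of which 3 rose and 1 fell of 10 after aspiration and 1 rose and 7 fell after inhalation, included the macrophage gene Adgre1 (1.29 and -0.40) and the eosinophil gene Prg2 (2.99 and 0.01). Their mean log2 intensity was 10.66 to 10.93 in aspirated rCNT lungs against 10.34 to 10.41 in PBS lungs, and 9.23 to 9.43 in inhaled rCNT lungs against 9.98 to 10.57 in untreated lungs. Their part in the changes of Lgals3, Il4 and Il13 was not tested. Mmp14, a protease that can shed membrane mucins, rose by 1.17 ± 0.06 after aspiration. The adhesion receptor gene Icam1 rose by 0.39 after aspiration, and fell by 0.70 after inhalation, a difference of effects of 1.09 (limma adjusted p = 2.13e-05). The GTPase gene Cdc42 fell by 0.38 after inhalation, with 0.00 after aspiration. Msln, the partner of Muc16 and a mesothelial marker, had -0.07 ± 0.09 after aspiration and rose by 0.46 ± 0.10 after inhalation. Of 8 mesothelial markers, Msln included, 6 fell and none rose after aspiration, and 2 rose and 5 fell after inhalation.

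Genes of ion and water transport, which set how far mucus swells, gave 1 higher and 4 lower of 11 tested after aspiration, and 5 higher and 4 lower after inhalation. The only one that rose after aspiration was Slc26a4, the anion exchanger pendrin, by 4.98 ± 0.26, and it rose by 3.27 ± 0.29 after inhalation. Cftr, the chloride and bicarbonate channel, rose by 1.82 ± 0.19 after inhalation, with 0.08 ± 0.17 after aspiration, a difference of -1.74 (limma adjusted p = 3.055e-05). This difference also holds the gap between the controls, as Cftr averaged 8.02 in PBS and 6.75 in untreated lungs. With rCNT it averaged 8.10 after aspiration and 8.56 after inhalation. Scnn1b, a subunit of the epithelial sodium channel, fell by 0.79 after aspiration and by 0.48 after inhalation.

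**Figure D4:**
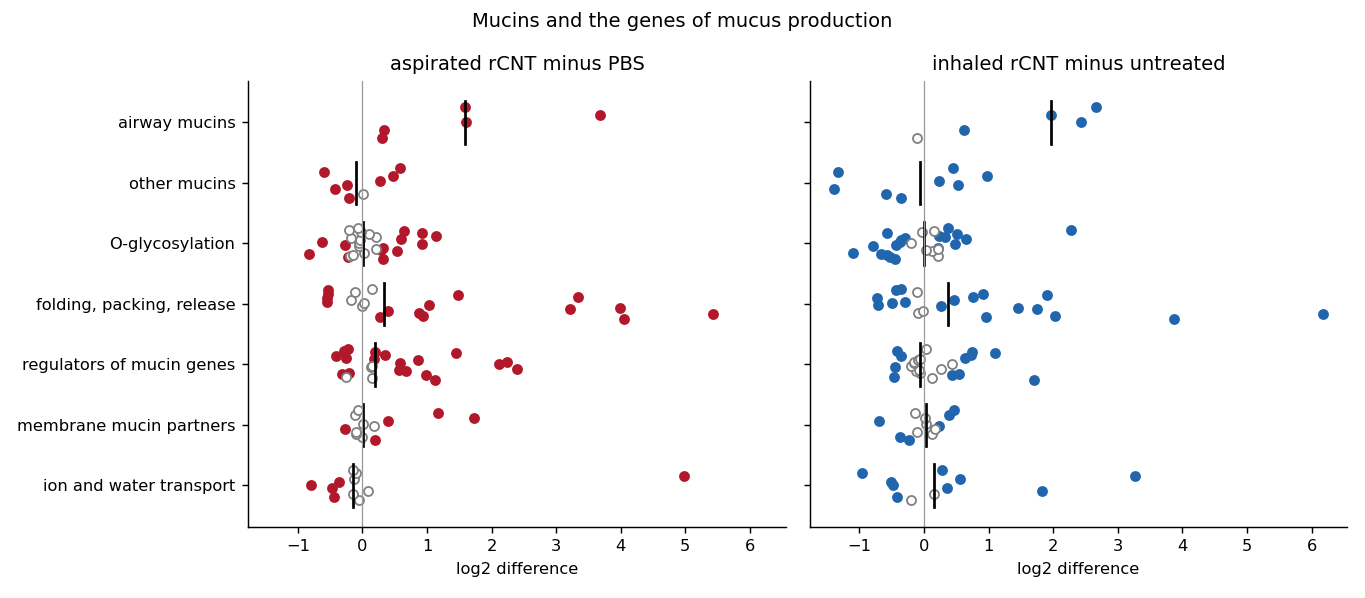
Log2 differences (horizontal axis) of single genes in the airway mucin set and in 6 lists of genes of mucus production, for aspirated rCNT minus PBS (left) and inhaled rCNT minus untreated (right). Filled points passed an adjusted p of 0.05, open points did not, and bars mark the median of a list. Medians of the airway mucins, 1.59 and 1.96, lie to the right of those of the 6 other lists. Lists of cell type markers are not shown, and some had larger medians. These were 2.35 for goblet cell markers after aspiration and 2.14 for gland markers after inhalation.

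Among markers of cell types that can make mucins, the goblet cell list rose by both routes, while the club cell list was mixed. The gland list was mixed after aspiration, but after inhalation 4 of 6 rose, with a median of 2.14 against 1.83 for the goblet cell list. The part of these cell types in the mucin results was not tested. Of 8 goblet cell markers 8 rose after aspiration and 7 after inhalation, against 20.6% and 28.4% of all genes. Their mean log2 intensity was 11.80 to 12.63 in aspirated rCNT lungs against 9.05 to 9.63 in PBS lungs, and 10.69 to 10.995 in inhaled rCNT lungs against 8.41 to 8.72 in untreated lungs. Agr2, Clca1 and Tff2 are among them, and 6 of the 8 are also among the genes that fold, pack or accompany mucins. Of 7 club cell markers 2 rose and 5 fell after aspiration, and 3 rose and 1 fell after inhalation. Scgb1a1, the main secretory protein of club cells, fell by 0.98 ± 0.16 after aspiration, with 0.03 ± 0.17 after inhalation. It averaged 18.17 in PBS, 18.14 in inhaled rCNT and 18.16 in untreated lungs. These lie close to the top value that quantile normalisation gives every sample, 18.58, which may limit the differences of Scgb1a1. The mean of the club cell markers was 13.82 to 14.15 in aspirated rCNT lungs against 14.46 to 14.76 in PBS lungs, and 14.55 to 14.79 in inhaled rCNT lungs against 14.28 to 14.35 in untreated lungs.

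Most ciliated cell markers rose more after inhalation. Of 9 markers 6 rose and 2 fell after aspiration, and 8 rose and 1 fell after inhalation. In the difference of effects 8 of 9 were lower and none higher, against 28.5% and 28.4% of all genes. Lower here means that the aspiration difference lay below the inhalation difference. The test also holds the gap between the controls: 5 of the 9 were higher and 1 lower in PBS than in untreated lungs, against 26.3% and 33.1% of all genes. A lower difference of effects is not always a larger rise after inhalation. Tppp3 fell by 0.99 after aspiration, and it averaged 13.13 in inhaled rCNT against 13.59 in untreated lungs. Foxj1, their master regulator, rose by 0.71 ± 0.07 after aspiration and by 1.57 ± 0.08 after inhalation. The mean of the 9 was 11.95 to 12.18 in aspirated rCNT lungs against 11.76 to 12.05 in PBS lungs, and 12.64 to 12.93 in inhaled rCNT lungs against 11.50 to 11.66 in untreated lungs. Of 6 gland markers 2 rose and 3 fell after aspiration, and 4 rose and 1 fell after inhalation, with medians of -0.39 and 2.14. The 2 that rose after aspiration were Dmbt1, by 3.19, and Ltf, by 2.22. The gland markers averaged 13.74 to 13.999 in aspirated rCNT lungs against 13.22 to 13.70 in PBS lungs, and 13.91 to 14.03 in inhaled rCNT lungs against 12.21 to 12.29 in untreated lungs. Untreated lungs had the lowest mean of the gland, goblet and ciliated lists, and also of Muc5b and Muc4. Of 8 alveolar type 2 markers 1 rose and 2 fell after aspiration, and 1 rose and 3 fell after inhalation. Those that fell included Sftpb and Abca3 after aspiration, by 0.50 and 0.51, and Napsa after inhalation, by 0.95. Sftpc did not pass, at -0.28 ± 0.13 and -0.32 ± 0.14, and it reached the same highest value, 18.58, in all 4 groups. Quantile normalisation gives every sample the same top value, which limits the differences of Sftpc. It is not a saturated signal. Of 7 alveolar type 1 markers 1 rose and 6 fell after aspiration, with a median of -0.95, and none rose and 2 fell after inhalation, with a median of -0.07. Markers of stomach and oesophagus, tissues that could be carried along, gave 1 higher and 1 lower of 4 tested after aspiration, and 1 higher and 2 lower after inhalation, and the higher one was Tff1 each time.

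The genes most like each mucin across the 15 samples were found by Pearson's correlation of log2 intensity. The 4 groups lie apart, so a high value mostly reflects the group means, and the value left within groups is given beside it. Muc5ac was most like Scin, an actin-severing protein (r = 0.993 over all samples, 0.93 within groups), and Fcgbp, a mucus protein built of mucin-like domains (r = 0.993 and 0.91), followed by Phf19 (r = 0.983 and 0.61). Muc5b was most like Ltf, the iron-binding protein lactoferrin (r = 0.981 and -0.04), 4930444P10Rik (r = 0.976 and -0.38) and Lhx3 (r = 0.973 and -0.15). These genes were picked for their correlation over the same samples, so the values within groups are not independent of the choice. Aspirated rCNT replicate 4 was the highest of its group for Muc5ac, Scin and Fcgbp alike, at 12.25, 10.10 and 13.12.

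Scin rose by 2.81 after aspiration and by 1.35 after inhalation, and Ltf by 2.22 and by 3.22. Muc4 was most like Pidd1 (r = 0.983 and 0.33), Tff2 (r = 0.981 and 0.21) and Kmt5a (r = 0.980 and 0.74). Muc1 was most like Mtbp (r = 0.962 and 0.53), Metap2 (r = 0.960 and 0.82) and Mta3 (r = 0.957 and 0.61), genes that also differed by small amounts between groups. Muc20 was most like Hp, the haemoglobin-binding protein haptoglobin (r = 0.944 and 0.72), Acsm1 (r = 0.935 and 0.70) and Bcas1 (r = 0.934 and 0.49). On chromosome 7, Muc5ac lies between Muc2 and Muc5b. These neighbours, Muc5ac and Muc5b, shared none of their 3 most similar genes, but neither did any other pair of the mucin genes. Lists of 3 genes are too short to tell whether the neighbours are regulated separately, which was not tested.

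**Figure D5:**
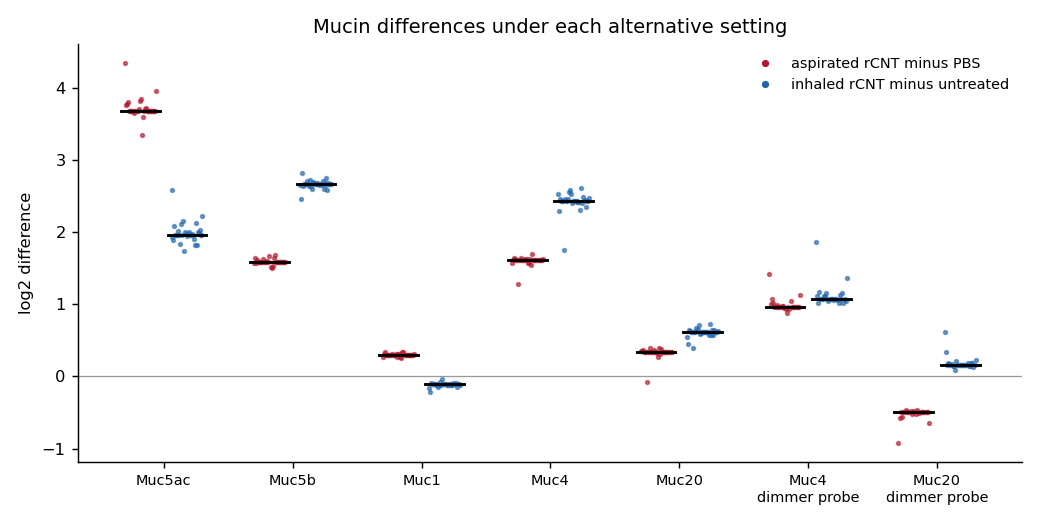
Log2 differences (vertical axis) of each mucin gene, and of the dimmer probes of Muc4 and Muc20, under every alternative setting run (points) and as reported (bars), for aspirated rCNT minus PBS and inhaled rCNT minus untreated. The Muc20 point below 0 after aspiration is the mean of its 2 probes, at -0.077.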

How the data were processed

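RNA of mouse lung was read on 2-colour Agilent arrays, in which each sample is 1 channel labelled with Cy3 or Cy5. The deposited intensity values used were the medians over a spot's pixels and over its surroundings, extracted with Agilent Feature Extraction 11.0.1.1 as the headers state. A table of the whole series, deposited by the authors, was taken as log2 values for an alternative only: its columns correlated at 0.998 to 1.00 with the sample's own channel, and its log base and centring stay unknown (column medians 6.58 to 6.59). The submitters' processing notes name Feature Extraction and limma.

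From the own-channel intensities, background was corrected with normexp (offset 50) on all 62976 spots, log2 values were taken and the 15 channels were quantile-normalised. Control spots and outlier spots were left out, and no spot was saturated (0). Probes well above background in 3 or more samples of any group were kept, which left 34271 of 55681 probes. Of 29123 probes with a RefSeq accession 27656 matched a symbol, with a GRCm38.p6 table used for names and promoters. A gene with several probes was represented by its brightest one on average. Intensities of different probes were not compared with each other.

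One linear model with group and dye was fitted to 15 samples on 14 arrays in R 4.3.3 by lmFit and eBayes of limma 3.58.1, with two-sided tests, and p-values were adjusted by Benjamini-Hochberg over 25251 genes, threshold 0.05. The fit was tested on simulated data. Python 3.11.15 and matplotlib 3.10.9 drew the figures. Alternatives changed the background, normalisation, filter, probe rule, dye, slide, variance model and samples. Besides the members and their probes, the text names the 3 genes most correlated with each member, the 2 members of each mucus list with the smallest p per exposure, and 10 genes listed by name. Vamp8, Adgre1, Prg2, Siglecf, S100a8, Dmbt1, Sftpb, Abca3 and Napsa were chosen after their values were seen. The members and gene lists were chosen with earlier results of these data known.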

Additional observations from a re-analysis of the deposited data

Results flagged for a closer look

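Of 21 groups of 4 samples checked over the 7 mucin probes, 2 held a sample far from the others, and chance gives about 1 in 20. Untreated replicate 3 had a Muc5b log2 intensity of 12.40, with the nearest other untreated sample at 12.87. Untreated replicate 1 had a Muc4 log2 intensity of 10.32, with the nearest other at 10.03. This is the sample whose title names a PBS aspiration, and it lies below the PBS samples, which start at 11.20.

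The effect of aspirated rCNT minus that of inhaled rCNT differed from 0 for 4 genes by a test of the difference itself: 1.71 for Muc5ac, -1.08 for Muc5b, 0.41 for Muc1 and -0.82 for Muc4, on the log2 scale. Each value includes the difference between PBS and untreated lungs, and the lung dose of inhaled rCNT is not known here.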

How the results depend on the processing

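Of 1228 recomputed differences of single mucin genes or probes, 1202 kept their side of the threshold and, where they passed, their direction, 18 no longer passed, 6 newly passed and 2 reversed. Part of this agreement was fixed by the design, because some alternatives cannot move some differences. Leaving out untreated replicate 3, or taking slide or replicate as a block, left the Muc5ac aspiration difference at exactly its reported 3.67. The number of mucin genes that passed was 4 to 5 after aspiration, 4 to 5 after inhalation and 4 to 5 in the difference of effects over all alternatives, and with single samples left out it was 5, 4 and 4 to 5. Both reversals concern Muc20 with the mean of its probes, at -0.077 after aspiration and 0.23 for PBS minus untreated. That alternative averages 2 probes that moved in opposite directions. Of the 18 losses, 15 concern the dimmer Muc20 probe after inhalation, whose adjusted p ran from 0.00243 to 0.5098; the cause was not tested. With the processed signal this probe gave -0.92 after aspiration, 0.61 after inhalation and -1.53 for the difference of effects, in place of -0.49, 0.16 and -0.66. The mean of the Muc4 probes after inhalation was 1.75 in place of 2.43. Replicate numbers did not pair the samples: deviations of same-numbered samples correlated at -0.14 to 0.29 in aspiration and -0.09 to 0.13 in inhalation. The replicate block cannot change the aspiration differences, because both groups hold the same replicate numbers, but it can change their p-values. With it all 5 mucin genes still passed after aspiration, and the dimmer Muc20 probe after inhalation did not (0.14, adjusted p = 0.0847). The number of arrays and the overlap of route, dose, slide and kind of control limit every statement between routes. The array as a random block was not run, because no correlation could be estimated from 1 shared array. Testing all probes, the older annotation and an offset of 16 were chosen after seeing the data. Over the alternatives, folding and release genes that rose numbered 8 to 12 after aspiration and 9 to 11 after inhalation.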
